A study of Mus musculus with 12 samples.

Results

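The TRAV12 family comprised every TCRα clonotype whose V segment was named TRAV12, TRAV12D or TRAV12N in the deposited tables. A clonotype was a V segment, a CDR3 amino acid sequence and a J segment, and it was kept when its CDR3 was marked with neither a stop codon nor a frame shift. By this rule 2537 of the 22578 clonotypes in the 12 libraries belonged to the family, from 7704 of the 57431 lines deposited. They carried 19124 of 199248 unique molecular identifiers (UMIs), or 9.60%. A UMI is a random tag put on a cDNA molecule, so that a UMI count stands for mRNA molecules and not for reads, and more mRNA per cell cannot be told apart from more cells.

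The mice were 3 weeks old, on the B6 background, and either wt, Il2° (Il2null in the labels) or Il15° (Il15null), with 4 mice per genotype and 1 library per mouse. All 12 carried the Rag2-Gfp and Foxp3-Thy1a reporters, the Kaa Tcrb transgene and the Tcra+/null genotype. Every Treg could therefore express only 1 functional Tcra allele together with the same transgenic TCRβ chain, and the α-chains described here are those that arose beside that single β-chain. From each mouse 100000 CD4+CD8-Thy1.1+GFP+ thymocytes were sorted. Thy1.1 marked Foxp3 expression, and GFP marked cells that had recently ended RAG expression, that is newly developed thymic Treg. The tables hold TCRα sequences only, so the identity of the cells rests on this sort.

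A TCRα chain is assembled in the thymus by joining 1 of many V segments (TRAV) to 1 of many J segments (TRAJ), without a D segment. The joint forms CDR3, the loop that lies over the centre of the peptide-MHC surface, whereas CDR1 and CDR2 are encoded by the V segment. Rearrangement of Tcra can repeat on the same allele. Early joins use V segments near the J cluster and J segments at its 5′ end (high TRAJ numbers), and later joins move outward to more distant V segments and to J segments at the 3′ end (low numbers). In B6 mice a part of the V array has been triplicated, and the copies carry the same number with the letter D, N or none. IL-2 and IL-15 are cytokines that signal through shared β and γ receptor chains and take part in the development of thymic Treg. The comparison of the 3 genotypes asks which TCRα chains Treg use when either cytokine is absent.

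The TRAV12 genes lie on the forward strand of chromosome 14 (mm10 per the labels, coordinates from GENCODE M21 on the same build, GRCm38). In order along the chromosome TRAV12D-1 is at chr14:52844465-52845041, TRAV12D-2 at chr14:52915799-52916426, TRAV12D-3 at chr14:52929789-52930282, TRAV12N-3 at chr14:53240745-53241244, TRAV12-1 at chr14:53538191-53538738, TRAV12-2 at chr14:53616315-53616914 and TRAV12-3 at chr14:53621657-53622245. The TRAJ cluster follows from position 54155005 to 54218842, with TRAJ61 first and TRAJ1 last. TRAV12-3 is thus closer to the TRAJ cluster than TRAV12N-3. The annotation lists 10 TRAV12 genes in all. No in-frame UMI in any library was named TRAV12N-1, TRAV12N-2 or, for the pseudogene, TRAV12-4.

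The ends of the V segments show how little of CDR3 separates the members. The last 40 bases of 3 annotated transcripts are given here, with the 14 bases that enter CDR3 in capitals, starting at the codon of the conserved cysteine.
TRAV12N-3: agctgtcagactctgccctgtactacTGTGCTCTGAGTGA
TRAV12D-2: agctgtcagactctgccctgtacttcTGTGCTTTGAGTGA
TRAV12-2: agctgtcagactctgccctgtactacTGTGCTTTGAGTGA
TRAV12-3, TRAV12D-1, TRAV12D-3 and TRAV12-1 end with the same 40 bases as TRAV12N-3. The CDR3 therefore cannot tell these 5 apart, and the name came from the rest of the V read. Over the last 300 transcript bases TRAV12N-3 and TRAV12D-3 did not differ at any base, as was the case for TRAV12D-1 with TRAV12N-1 and for TRAV12D-2 with TRAV12N-2. TRAV12N-3 and TRAV12-3 differed at 10 of the 300 bases, and TRAV12D-2 and TRAV12-2 at 11. Values for single copies are uncertain for this reason, and those for copies merged by number are given beside them where they changed a result.

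How far naming moved between libraries could be counted. Among 1773 CDR3 nucleotide sequences with their J segment that were found under a TRAV12 name and occurred in at least 2 libraries, 267 (15.1%) carried 2 or more V names. Of these, 134 changed between TRAV12 names only, most often between TRAV12-3 and TRAV12N-3 (44) or TRAV12-2 and TRAV12N-3 (41). The other 133 (7.50%) had a name outside the family in some library, and 94 of them had a TRAV6 name. These 133 carried 1283 UMIs under a TRAV12 name and 1432 under another name. In 46 of the 267 sequences all names were copies of 1 number, so merging copies leaves the other changes in place. Within 1 library the names were nearly always single, with 2 or more names in 12 of 8005 pairs of library and sequence.

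The leading nucleotide sequences of the most abundant TRAV12 clonotypes are shown because they carry the pairing described further on, with capitals for bases assigned to neither V nor J.
TRAV12N-3 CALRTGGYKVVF TRAJ12: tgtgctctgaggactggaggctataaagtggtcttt
TRAV12-3 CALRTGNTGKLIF TRAJ37: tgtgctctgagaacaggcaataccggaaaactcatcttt
TRAV12N-3 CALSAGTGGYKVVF TRAJ12: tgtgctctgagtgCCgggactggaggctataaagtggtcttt
TRAV12-3 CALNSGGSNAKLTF TRAJ42: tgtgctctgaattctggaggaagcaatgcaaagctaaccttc
TRAV12N-3 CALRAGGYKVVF TRAJ12: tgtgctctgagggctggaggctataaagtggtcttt
TRAV12-3 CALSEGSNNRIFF TRAJ31: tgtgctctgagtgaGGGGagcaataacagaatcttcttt
TRAV12-3 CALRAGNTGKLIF TRAJ37: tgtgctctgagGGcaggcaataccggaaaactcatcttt
TRAV12N-3 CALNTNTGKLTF TRAJ27: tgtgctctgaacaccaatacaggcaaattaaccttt
TRAV12-3 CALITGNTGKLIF TRAJ37: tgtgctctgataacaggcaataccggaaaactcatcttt
TRAV12N-3 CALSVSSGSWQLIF TRAJ22: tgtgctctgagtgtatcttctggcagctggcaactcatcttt
In 7 of these 10 sequences V and J met without an added base. The capitals mark 2, 4 and 2 added bases in the other three.

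The family's share of UMIs differed between genotypes by less than the tests could separate. It took 10.60%, 9.64%, 9.41% and 11.07% of UMIs in the wt libraries, 10.66%, 8.42%, 6.44% and 6.89% in Il2° and 11.02%, 9.73%, 8.62% and 10.17% in Il15°. Il2° replicates 2, 3 and 4 lay below every wt library, and Il2° replicate 1 lay among the wt libraries. The means were 10.2% ± 0.79, 8.10% ± 1.904 and 9.89% ± 1.00 (SD, n = 4 each). Neither Il2° against wt (-2.08 percentage points, exact two-sided Mann-Whitney adjusted p = 0.3) nor Il15° against wt (-0.29, adjusted p = 0.886, exact) nor Il15° against Il2° (1.78, adjusted p = 0.3, exact) passed the threshold of 0.05. With 4 mice per group the smallest p of this test is 0.0286. The libraries held 7625 to 25980 UMIs and 250 to 743 family clonotypes each. P-values between genotypes rest on the spread between mice of 1 genotype. Those of the sign-flip tests over the 12 libraries, given further on, rest on the spread over libraries of all 3 genotypes.

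A difference appeared when each clonotype was counted once, whatever its UMIs. The family then made up 12.9%, 13.1%, 12.9% and 13.5% of all clonotypes in wt, 13.1%, 10.9%, 8.005% and 8.046% in Il2°, and 14.5%, 15.2%, 14.4% and 15.1% in Il15°. All 4 Il15° libraries lay above all wt and all Il2° libraries. The share was 1.73 points higher in Il15° than in wt and 4.77 points higher than in Il2° (exact Mann-Whitney, adjusted p = 0.0429 for both), while Il2° against wt gave -3.05 points (adjusted p = 0.2, exact). The UMI totals of the libraries also differed, and their part in this count was not tested.

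**Figure D1:**
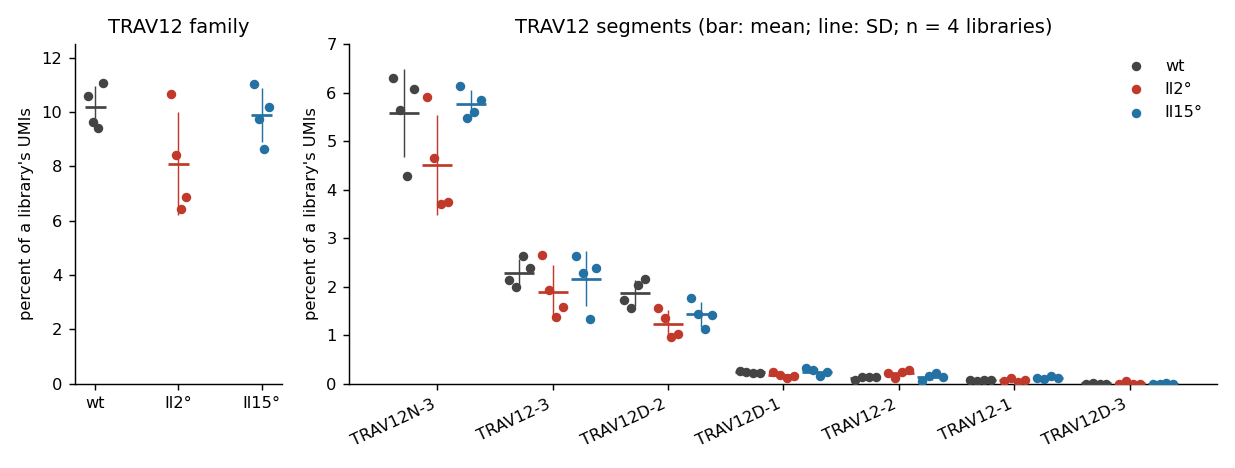
Share of a library's UMIs (percent, vertical axis) taken by the TRAV12 family (left) and by each TRAV12 segment (right) in wt, Il2° and Il15°, with 1 dot per library, the mean as a bar and the SD as a line. TRAV12N-3, TRAV12-3 and TRAV12D-2 carried nearly all of the family, and 3 of 4 Il2° libraries sat below the wt libraries for the family as a whole.

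TRAV12N-3 was the main member. It took 6.30%, 5.63%, 4.27% and 6.08% of UMIs in wt, 5.91%, 4.66%, 3.70% and 3.75% in Il2°, and 6.13%, 5.47%, 5.599% and 5.85% in Il15°, and its 1325 clonotypes were more than those of any other TRAV12 name. The Il15° libraries were close to each other (5.76% ± 0.29), and the Il2° range overlapped both other genotypes. TRAV12-3 followed with 2.14%, 1.99%, 2.64% and 2.39% in wt, 2.65%, 1.93%, 1.38% and 1.57% in Il2°, and 2.64%, 2.28%, 1.34% and 2.38% in Il15°, from 358 clonotypes. TRAV12D-2, with 565 clonotypes, took 1.73%, 1.57%, 2.03% and 2.15% in wt, 1.57%, 1.36%, 0.962% and 1.04% in Il2°, and 1.76%, 1.43%, 1.13% and 1.43% in Il15°. For TRAV12D-2 no Il2° library exceeded any wt library.

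The other 4 names were rare. Over the 12 libraries TRAV12D-1 averaged 0.222%, TRAV12-2 0.163%, TRAV12-1 0.0905% and TRAV12D-3 0.00883%, and TRAV12D-3 had only 19 UMIs from 9 clonotypes. TRAV12D-3 is identical to TRAV12N-3 over the bases compared. In an exact sign-flip test over the 12 libraries each of TRAV12N-3 over TRAV12-3, TRAV12-3 over TRAV12D-2, TRAV12D-2 over TRAV12D-1 and TRAV12-1 over TRAV12D-3 held in 12 of 12 libraries (adjusted p = 0.000732). TRAV12-2 exceeded TRAV12-1 in 11 of 12 libraries (adjusted p = 0.00527, exact sign-flip). TRAV12D-1 and TRAV12-2 did not differ beyond their spread (9 of 12 libraries, adjusted p = 0.0981, exact sign-flip).

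Between genotypes no TRAV12 segment passed the threshold in edgeR's quasi-likelihood test with Benjamini-Hochberg adjustment over all V segments. In Il2° against wt 0 of the 6 members tested were called, where 1.2% of the 83 segments tested were, and 5 of the 6 had a log2 fold change below 0 (median -0.45, against 0.02 over all segments). TRAV12D-2 was at -0.75 (SE 0.22, adjusted p = 0.0843, edgeR) and TRAV12N-3 at -0.47 (SE 0.19, adjusted p = 0.240, edgeR), and these 2 of the 6 had an unadjusted p below 0.05, as did 11 of all 83 segments (13.3%). TRAV12-3 was at -0.43 (adjusted p = 0.356, edgeR). In Il15° against wt 0 of 6 were called, against 0% of 81 segments, 0 had an unadjusted p below 0.05 (8.64% of all), and TRAV12N-3 was at 0.08 and TRAV12D-2 at -0.34. In Il15° against Il2° 0 of 6 were called, against 2.53% of 79, and TRAV12N-3 was at 0.49 (SE 0.18, adjusted p = 0.146, edgeR), the 1 member with an unadjusted p below 0.05 (13.9% of all). These 3 comparisons share libraries, so their fold changes are not independent.

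The counts rested on choices of copy name, tool and mouse. TRAV12D-2 passed with DESeq2 (adjusted p = 0.0284), where 2.41% of all segments did, and in 1 edgeR fit over all 12 libraries (adjusted p = 0.0490), where 3.61% did. Without Il2° replicate 1, TRAV12D-2 (-0.995), TRAV12-3 (-0.75) and TRAV12N-3 (-0.74) all passed, with edgeR adjusted p of 0.00384, 0.0116 and 0.0168, and they were 3 of the 9 segments called among 80 (11.2%). In Il15° against Il2° TRAV12N-3 passed without the same library (0.70, edgeR adjusted p = 0.00981, 6.41% of 78 segments called). Without wt replicate 2, TRAV12D-2 alone passed (-0.91, edgeR adjusted p = 0.0306, 3.75% of all called). Without any other single library TRAV12D-2 did not pass in Il2° against wt (edgeR adjusted p = 0.0582 to 0.246). Nor did it pass with library totals without TMM (-0.58, edgeR adjusted p = 0.115), with relative log expression scaling (edgeR adjusted p = 0.0989) or with limma (adjusted p = 0.235). Without TMM, TRAV12N-3 was at -0.29 (edgeR adjusted p = 0.321). With D and N copies merged, both the copies numbered 2 (-0.65, edgeR adjusted p = 0.0329) and those numbered 3 (-0.49, edgeR adjusted p = 0.0252) were lower in Il2° than in wt, 2 of the 5 called among 51 merged segments (9.8%). Those numbered 3 were higher in Il15° than in Il2° (0.43, edgeR adjusted p = 0.0471), 1 of 5 called among 50 (10%). With each clonotype counted once, TRAV12N-3 was higher in Il15° than in wt (0.27, edgeR adjusted p = 0.0310, 4.11% of 73 segments called) and than in Il2° (0.86, edgeR adjusted p = 0.0118, 1.37% of 73 called). The merged copies numbered 3 took 7.87% ± 0.75 of UMIs in wt. In Il2° they took 6.40% ± 1.59 and in Il15° 7.93% ± 0.77, and those numbered 2 took 2.00% ± 0.28, 1.45% ± 0.26 and 1.58% ± 0.20 (SD, n = 4 each).

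J pairing differed between the family and the pooled rest of the repertoire, and between its members. Whether other TRAV families differ as much from their own rest was not tested. TRAJ12 took 16.95% ± 2.8 of the family's UMIs against 7.74% ± 0.86 of the in-frame UMIs of all other TRAV segments, and was higher in the family in 12 of 12 libraries (adjusted p = 0.000824, exact sign-flip test, as for the next values unless given). TRAJ37 took 12.3% ± 2.3 against 4.51% ± 0.77, also in 12 of 12 libraries. TRAJ42 (3.67% against 1.29%), TRAJ11 (2.10% against 1.26%) and, at the 3′ end of the cluster, TRAJ6 (4.03% against 1.14%), TRAJ5 (2.56% against 0.408%) and TRAJ2 (1.88% against 0.559%) were higher in 12 of 12. TRAJ4 (3.84% against 2.18%, adjusted p = 0.00146, exact sign-flip) and TRAJ24 (1.47% against 0.927%, adjusted p = 0.0151, exact sign-flip) were also higher.

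Of the 27 TRAJ segments with at least 1% of UMIs on either side, 23 (85.2%) passed, 9 of them higher and 14 lower in the family. TRAJ15 (1.49% against 5.85%), TRAJ9 (3.50% against 7.55%), TRAJ31 (5.68% against 9.40%), TRAJ17 (1.88% against 4.83%) and TRAJ26 (0.973% against 3.85%) had the widest gaps among the lower ones, and each was lower in 12 of 12 libraries. TRAJ27 (4.59% against 5.37%, adjusted p = 0.0033, exact sign-flip) and TRAJ23 (5.49% against 6.50%, adjusted p = 0.0276, exact sign-flip) were lower by less. TRAJ33 (0.474% against 1.92%), TRAJ32 (1.35% against 1.91%), TRAJ21 (3.04% against 4.78%) and TRAJ18 (1.36% against 2.90%) were lower in 12 of 12 libraries. The remaining lower ones were TRAJ39 (2.07% against 2.90%), TRAJ30 (1.16% against 2.12%) and TRAJ16 (0.499% against 1.96%). Their adjusted p were 0.0367, 0.00278 and 0.00146 (exact sign-flip). TRAJ22 (6.41% against 5.64%, adjusted p = 0.238, exact sign-flip), TRAJ34, TRAJ40 and TRAJ13 did not pass. With each clonotype counted once, 21 of these 23 passed again and in the same direction, and TRAJ23 turned to 0.27 points above the other TRAV segments (adjusted p = 0.636, exact sign-flip).

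**Figure D2:**
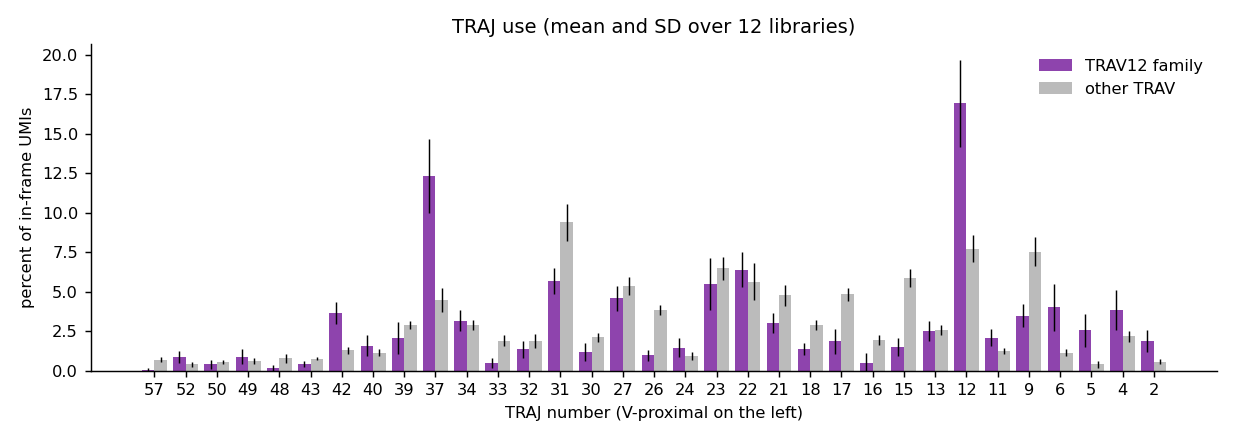
Percent of in-frame UMIs (vertical axis) joined to each TRAJ segment, ordered from the V-proximal end on the left, for the TRAV12 family and for all other TRAV segments (bars are means and lines SD over 12 libraries). The family's bars stand above the others at TRAJ37, TRAJ12 and TRAJ6 to TRAJ2 and below them at TRAJ31, TRAJ26, TRAJ15 and TRAJ9.

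The 3 main members differed in the part of the TRAJ cluster they used. Weighted by UMIs, the mean TRAJ number was 17.7 ± 1.1 for TRAV12N-3 (15.5 to 19.3 over the 12 libraries) and 35.3 ± 1.0 for TRAV12-3 (32.9 to 36.7), and the difference was 17.6 ± 1.7 with TRAV12-3 higher in 12 of 12 libraries. The ranges did not overlap. TRAV12-3, the nearer of the pair to the TRAJ cluster, thus carried the more V-proximal TRAJ segments, and TRAV12N-3 the more distal ones. TRAV12D-3, identical to TRAV12N-3 over the bases compared, is also further from the TRAJ cluster than TRAV12-3. UMIs named TRAV12D-2 were at 21.3 ± 2.0. The gene of that name lies further 5′ than TRAV12N-3. Its identical copy TRAV12N-2 lies near TRAV12N-3, at chr14:53226773-53227400, so the position of the copy used is not known.

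TRAV12N-3 was joined to TRAJ12 in 24.3% ± 4.1 of its UMIs (19.3% to 31.1% over the libraries) and to TRAJ22 in 10.0% ± 1.8. TRAV12-3 was joined to TRAJ37 in 43.3% ± 5.9 (34.0% to 53.0%), to TRAJ42 in 12.98% ± 2.9 and to TRAJ31 in 12.7% ± 2.9, and to TRAJ12 in only 0.925% ± 1.2. TRAJ37 held 3.93% ± 3.1 of the UMIs named TRAV12N-3, from 0.266% to 10.9%, and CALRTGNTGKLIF and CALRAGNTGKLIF with TRAJ37, named TRAV12-3 in most libraries, were among these UMIs. TRAV12D-2 was joined to TRAJ12 in 16.8% ± 3.0, to TRAJ23 in 16.7% ± 7.8 (4.72% to 28.0%) and to TRAJ31 in 8.73% ± 3.3. The family's excess of TRAJ37 was thus carried by TRAV12-3, and that of TRAJ12 by TRAV12N-3 and TRAV12D-2. Among the rare names TRAV12D-1 had TRAJ49 as its leading partner (26.6% of its UMIs), TRAV12-2 had TRAJ31 (12.2%) and TRAV12-1 had TRAJ26 (18.1%).

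**Figure D3:**
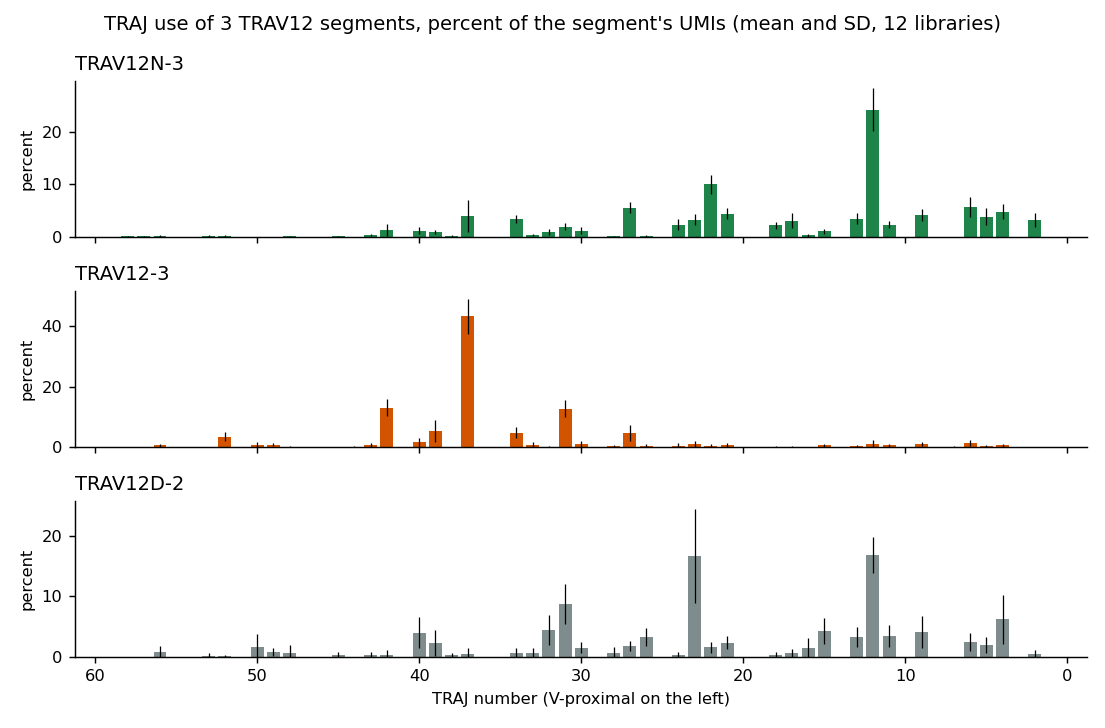
Percent of each segment's UMIs (vertical axes) joined to each TRAJ number, V-proximal on the left, for TRAV12N-3, TRAV12-3 and TRAV12D-2 (bars are means and lines SD over 12 libraries). TRAV12-3 peaks at TRAJ37 with further bars at TRAJ42 and TRAJ31, TRAV12N-3 at TRAJ12 and TRAJ22, and TRAV12D-2 at TRAJ23 and TRAJ12.

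Within the family TRAJ12 was the 1 J segment whose use passed the edgeR test between genotypes. It took 15.3%, 16.8%, 14.8% and 18.1% of the family's UMIs in wt, 13.8%, 15.3%, 13.7% and 15.8% in Il2°, and 19.75%, 17.998%, 23.09% and 18.93% in Il15°. All Il15° libraries lay above all Il2° libraries, and the lowest of them lay just under the highest wt library. In Il15° against Il2° TRAJ12 was higher by 0.49 on the log2 scale (SE 0.10, adjusted p = 0.000933, edgeR), and it was 1 of 31 TRAJ segments tested, or 3.23%, to be called. Against wt it was at 0.32 in Il15° (adjusted p = 0.166, edgeR) and at -0.12 in Il2° (adjusted p = 0.575, edgeR), and 0% of 33 and 0% of 31 segments were called. The call for Il15° against Il2° was lost with relative log expression scaling (adjusted p = 0.0622, edgeR), with DESeq2 (0.109), with limma (0.366), without Il2° replicate 1 (0.0785) and without Il2° replicate 2 (0.168), with log2 fold changes of 0.43 to 0.60 when single libraries were left out.

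The other TRAJ segments with at least 5% of the family in some genotype did not pass between genotypes. In wt TRAJ37 averaged 12.4% ± 2.4. Its averages were 14.01% ± 1.0 for Il2° and 10.5% ± 2.3 for Il15°. TRAJ31 was at 3.99% to 5.19% in wt, 5.90% to 6.76% in Il2° and 5.50% to 6.82% in Il15°, so that both mutants lay above wt, with edgeR adjusted p of 0.206 and 0.265. TRAJ22 was highest in Il2° (7.06% to 8.19%, against 5.47% to 7.25% in wt and 4.43% to 5.93% in Il15°), with an adjusted p of 0.301 against wt and of 0.184 for Il15° against Il2° in edgeR. TRAJ23 ranged from 3.02% to 7.82% with overlap of all 3 genotypes.

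The TRAJ12 difference was seen in TRAV12N-3, a pattern noticed after the values were seen and given as a description. Of the UMIs of TRAV12N-3, TRAJ12 took 22.3%, 22.6%, 22.8% and 25.4% in wt, 20.7%, 19.8%, 19.3% and 21.3% in Il2°, and 29.9%, 27.9%, 31.1% and 28.1% in Il15°. The 3 genotypes did not overlap. In the other TRAV12 segments TRAJ12 took 7.77% ± 1.8, 7.57% ± 2.2 and 6.78% ± 1.3 in the same order, and in all other TRAV segments 7.25% ± 1.2, 8.23% ± 0.51 and 7.73% ± 0.56 (SD, n = 4 each), with overlap of all 3. The other TRAV12 segments include TRAV12-3, which rarely joined TRAJ12. Shares for TRAV12D-2 alone are not given by genotype. With the D, N and unlettered copies numbered 3 merged the shares were 16.5% ± 1.6, 14.8% ± 0.8 and 21.6% ± 2.6, and the Il15° libraries (19.7% to 25.4%) stayed above wt (14.2% to 18.2%) and Il2° (14.3% to 16.01%). Counted once each, 11.04% ± 0.98, 10.53% ± 0.91 and 12.04% ± 1.2 of the TRAV12N-3 clonotypes used TRAJ12, with overlap.

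**Figure D4:**
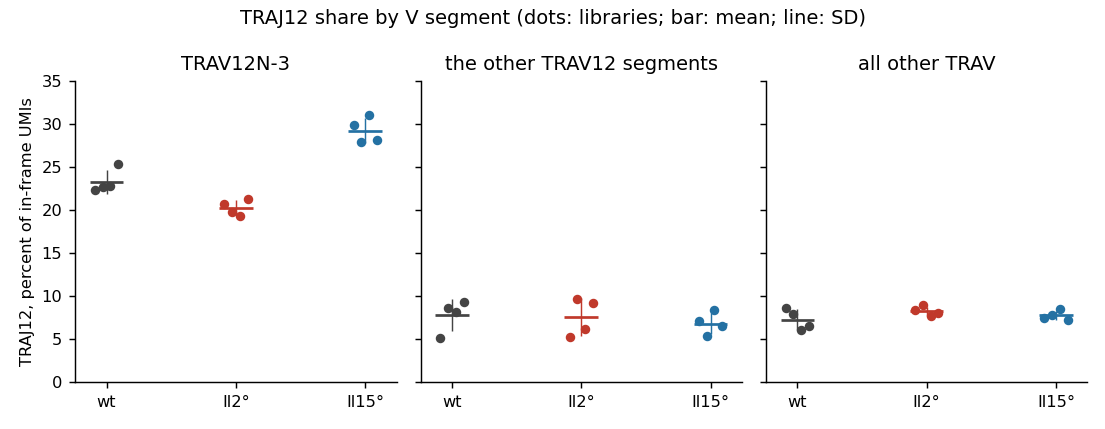
Percent of in-frame UMIs joined to TRAJ12 (vertical axis) in wt, Il2° and Il15° for TRAV12N-3, for the other TRAV12 segments and for all other TRAV segments, with dots for libraries, bars for means and lines for SD. For TRAV12N-3 the 4 Il15° libraries (27.9% to 31.1%) sit above the wt (22.3% to 25.4%) and Il2° (19.3% to 21.3%) libraries, and in the other panels the genotypes overlap.

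The most abundant clonotypes repeated these pairs. TRAV12N-3 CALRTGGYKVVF TRAJ12 was the first of the family, with a mean of 0.478% of UMIs and 18 nucleotide sequences. It took 0.485%, 0.435%, 0.344% and 0.589% in wt, 0.512%, 0.268%, 0.215% and 0.380% in Il2°, and 0.672%, 0.654%, 0.521% and 0.667% in Il15°. Its Il15° libraries all lay above its Il2° libraries and overlapped with wt. The fold change in Il15° against Il2° was 0.78 on the log2 scale (SE 0.35, adjusted p = 0.504, edgeR). In its leading sequence the V segment reached the second base of the arginine codon and J followed without an added base.

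TRAV12-3 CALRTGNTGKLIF TRAJ37 was the second, with a mean of 0.415% and 12 nucleotide sequences. It took 0.504%, 0.393%, 0.851% and 0.560% in wt, 0.354%, 0.348%, 0.221% and 0.289% in Il2°, and 0.622%, 0.327%, 0.00930% and 0.506% in Il15°. All Il2° libraries lay below all wt libraries (log2 fold change -0.85, SE 0.32, adjusted p = 0.391, edgeR). The low value of Il15° replicate 3 was 1 UMI, and 27 further UMIs of the same CDR3 and TRAJ37 were named TRAV12N-3 in that library. With the copies merged the shares were 0.504%, 0.393%, 0.851% and 0.733% in wt, 0.490%, 0.348%, 0.397% and 0.420% in Il2°, and 0.622%, 0.327%, 0.260% and 0.506% in Il15°, and the fold change in Il2° against wt was -0.53 (adjusted p = 0.530, edgeR), with overlap of the groups. TRAV12-3 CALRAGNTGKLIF TRAJ37 (mean 0.152%) had 0 UMIs in wt replicate 3 under this name, which allows a share of up to 0.0188% (3 UMIs), and 9 UMIs there were named TRAV12N-3.

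The remaining leading clonotypes were TRAV12N-3 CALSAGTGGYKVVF TRAJ12 (mean 0.193%), TRAV12-3 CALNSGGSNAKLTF TRAJ42 (0.170%), TRAV12N-3 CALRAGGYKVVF TRAJ12 (0.163%), TRAV12-3 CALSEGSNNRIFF TRAJ31 (0.159%), TRAV12N-3 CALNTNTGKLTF TRAJ27 (0.147%), TRAV12-3 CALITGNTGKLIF TRAJ37 (0.0925%) and TRAV12N-3 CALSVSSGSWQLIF TRAJ22 (0.0753%). The first 10 together held 21.7% of the family's UMIs. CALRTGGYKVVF, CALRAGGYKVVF and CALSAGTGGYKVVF share the TRAJ12 end GGYKVVF, and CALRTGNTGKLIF, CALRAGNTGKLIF and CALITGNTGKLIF share the TRAJ37 end GNTGKLIF.

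No TRAV12 clonotype passed the threshold between genotypes in edgeR. In Il2° against wt 0 of 60 tested were called (0% of all 464), in Il15° against wt 0 of 63 (0% of 478), and in Il15° against Il2° 0 of 38 (0.276% of 362). At an unadjusted p below 0.05 there were 2 of 60, 2 of 63 and 2 of 38 members, against 9.27%, 4.18% and 9.39% of all clonotypes tested. These counts are too small to set the members apart from that background. DESeq2 called 0, 1 and 0 members, against 1.29%, 1.05% and 1.38% of all. The median log2 fold changes of the members were -0.23, -0.26 and -0.10, against 0.10, -0.17 and -0.12 over all clonotypes tested.

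Some rarer clonotypes had the smallest unadjusted p. TRAV12N-3 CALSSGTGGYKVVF TRAJ12 took 0.0423%, 0.0293%, 0.0313% and 0.0115% in wt, 0.00753%, 0.0322%, 0.0520% and 0.0262% in Il2°, and 0.111%, 0.0727%, 0.307% and 0.124% in Il15°. Each Il15° library lay above all others, and the fold change was 2.32 against wt (SE 0.70, adjusted p = 0.390, edgeR) and 2.23 against Il2° (adjusted p = 0.366, edgeR). DESeq2 called it against wt (adjusted p = 0.0436). It rests on 128 UMIs over the 12 libraries.

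In Il15° against wt TRAV12-3 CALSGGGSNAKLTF TRAJ42 was at -2.57 (adjusted p = 0.977, edgeR), with 0 UMIs in 2 of the 4 Il15° libraries, and a 15-residue TRAV12D-2 TRAJ32 clonotype was at -1.96 (adjusted p = 0.982, edgeR). In Il2° against wt TRAV12D-2 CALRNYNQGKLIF TRAJ23 was at -2.38 (adjusted p = 0.391, edgeR), and 265 UMIs of the same CDR3 and J carried other V names, against 111 under this one. TRAV12-3 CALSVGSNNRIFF TRAJ31 was at -1.76 (adjusted p = 0.528, edgeR). In Il15° against Il2° TRAV12N-3 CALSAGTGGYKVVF TRAJ12 was at 0.81 (adjusted p = 0.610, edgeR). Of the 8 TRAJ12 clonotypes of the family tested in this comparison, 5 had a log2 fold change above 0, 4 of the 5 with TRAV12N-3 and 1 of the 3 with TRAV12D-2. Among all 38 family clonotypes tested 16 were above 0. TRAJ12 had been called on these same UMIs, so the directions of its clonotypes are not separate evidence.

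The few clonotypes shared by all mice were encoded by several nucleotide sequences. Of the 2537 family clonotypes 31 (1.22%) occurred in all 12 libraries and carried 31.1% of the family's UMIs. Of the other TRAV segments 143 of 18078 clonotypes (0.791%) did so, with 28.7% of their UMIs. Of the 31, 21 used TRAV12N-3, 5 TRAV12-3 and 5 TRAV12D-2, and 8 used TRAJ12, 3 TRAJ22 and 3 TRAJ37. They were encoded by 7.52 nucleotide sequences on average. At the other end 1291 family clonotypes (50.9%, against 52.8% for the other TRAV segments) occurred in 1 library, carried 11.4% of the UMIs and had 1.02 nucleotide sequences on average. A clonotype with more UMIs has more chances to be found in a library and to show several sequences, and the part of abundance in these counts was not tested.

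The CDR3 of the family was longer than that of the other TRAV segments. Its mean length was 13.40 ± 0.042 residues against 13.05 ± 0.017, a difference of 0.348 ± 0.040 (SD) present in 12 of 12 libraries (exact sign-flip p = 0.000488, the smallest p of this test, as for the next 3 measures). CDR3 of 11 residues made up 1.43% of the family's UMIs against 9.25% of the others, and those of 14 residues 38.2% against 29.9%. More bases lay between V and J (2.25 ± 0.087 against 2.04 ± 0.063, 12 of 12 libraries), the mean TRAJ number was lower (22.7 ± 0.94 against 23.6 ± 0.63, 12 of 12), and the central residues were less hydrophilic on the Kyte-Doolittle scale (-1.16 ± 0.038 against -1.29 ± 0.017, 12 of 12). Within the family TRAV12D-2 had more added bases (2.99 ± 0.29) than TRAV12N-3 (2.06 ± 0.17) and TRAV12-3 (2.17 ± 0.30), and mean lengths were 13.44 ± 0.11, 13.45 ± 0.057 and 13.24 ± 0.069.

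**Figure D5:**
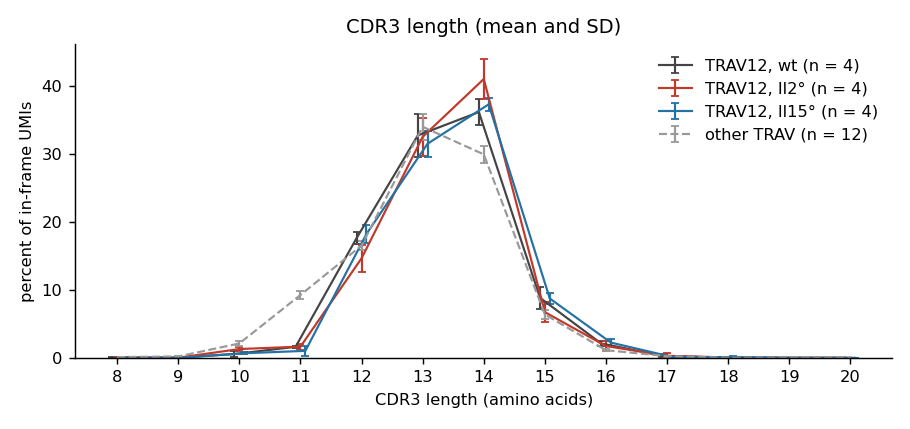
Percent of in-frame UMIs (vertical axis) by CDR3 length in amino acids (horizontal axis) for the TRAV12 family in each genotype (mean and SD of 4 libraries) and for the other TRAV segments (mean and SD of 12 libraries). The family peaks at 14 residues (38.2% over all libraries) and the others at 13 (34.0%), and 11 residues are rare in the family.

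None of these measures passed between genotypes. For wt the mean CDR3 length was 13.39 ± 0.035, and it was 13.40 ± 0.065 for Il2° and 13.40 ± 0.029 for Il15° (adjusted p = 0.686 for each comparison, exact Mann-Whitney). The number of added bases was 2.22 ± 0.10, 2.21 ± 0.062 and 2.33 ± 0.036, and the Il15° and Il2° libraries did not overlap (p = 0.0286, adjusted p = 0.0857, exact Mann-Whitney), which is the smallest adjusted p that 1 such difference among 3 comparisons can reach. The mean TRAJ number was 23.2 ± 0.96, 22.7 ± 1.1 and 22.2 ± 0.68 (smallest adjusted p = 0.6, exact Mann-Whitney). At an equal depth of 525 family UMIs a library held 265 ± 28 clonotypes in wt, 263 ± 23 in Il2° and 251 ± 30 in Il15°, and the exponential of the Shannon entropy was 173 ± 26, 178 ± 23 and 156 ± 20 (smallest adjusted p = 0.6, exact Mann-Whitney).

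The first residues of CDR3 were those of the V ends listed above. Position 1 was cysteine in 99.9% of the family's UMIs, position 2 alanine in 99.8% and position 3 leucine in 94.9%. Position 4 was serine in 40.4% ± 1.3, as in the unbroken V segment, and arginine in 31.4% ± 1.8. Between the first 3 and the last 4 residues, 17 of 20 amino acids (85%) differed from the other TRAV segments, 6 higher and 11 lower. Threonine (11.1% against 6.76%) and glycine (25.1% against 21.5%) were higher in 12 of 12 libraries, and asparagine (14.3% against 16.8%), alanine (4.95% against 6.77%), glutamate (1.35% against 3.14%) and glutamine (2.08% against 3.29%) were lower in 12 of 12 (adjusted p = 0.000977 for each, exact sign-flip). Serine (17.1% against 15.9%, adjusted p = 0.00570, exact sign-flip) and arginine (6.38% against 5.70%, adjusted p = 0.0165, exact sign-flip) were also higher, and with each clonotype counted once arginine was 0.10 points below the others. Proline, 1 of the 11 lower by UMIs (1.59% against 2.13%), was then 0.180 points above the others (adjusted p = 0.00244, exact sign-flip). Between genotypes 0 of 20 residues passed in Il2° against wt, 0 in Il15° against wt and 0 in Il15° against Il2° (exact Mann-Whitney, 0% called in each), and 2, 0 and 4 had an unadjusted p below 0.05.

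Public clonotypes are those found in all 4 mice of a genotype. In wt 127 of the 648 public clonotypes (19.6%) belonged to the family, in Il2° 59 of 441 (13.4%) and in Il15° 79 of 416 (19.0%), and 31 were public in all 3 genotypes. Following the terms of the study, a clonotype public in wt was IL-2-dependent when it was not public in Il2°, and IL-2-independent when it was, and likewise for IL-15. In the 4 wt libraries the family took 19.3%, 16.7%, 15.4% and 15.2% of the UMIs of IL-2-dependent clonotypes and 10.96%, 9.60%, 10.1% and 12.6% of those of IL-2-independent ones. Each of the former exceeded each of the latter, and the means differed by 5.83 points (16.6% ± 1.9 against 10.8% ± 1.3, exact Mann-Whitney p = 0.0286). Both values come from the same 4 libraries, and the exact sign-flip test within libraries gave p = 0.125, the smallest it can give with 4. The lists of clonotypes were also drawn from these libraries and from those of the mutant. Here and for IL-15, the p-values therefore cover only the spread of wt libraries around a fixed list. They do not test dependence on a cytokine. When only clonotypes with at least 2 UMIs in each library counted, the difference was 3.03 points (p = 0.0286, exact Mann-Whitney, and 0.125 by exact sign-flip within libraries). Counted as clonotypes and not as UMIs, the family was 23.4% of the IL-2-dependent and 14.9% of the IL-2-independent set, and 15.95% and 14.2% with at least 2 UMIs.

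For IL-15 the same comparison gave 11.9% ± 1.2 for dependent and 12.3% ± 1.1 for independent clonotypes, a difference of -0.39 points (p = 0.486, exact Mann-Whitney). With at least 2 UMIs in each library it turned to 7.90 points (16.4% ± 0.56 against 8.49% ± 1.3, p = 0.0286, exact Mann-Whitney, and 0.125 by exact sign-flip within libraries), so that its direction depended on how presence was defined. Absence from the public set was often absence from a single library. Of the 84 TRAV12 clonotypes public in wt and not in Il2°, 33 were still found in 3 of the 4 mutant libraries. A further 21 were found in 2, 20 in 1, and 10 were not found. Of the 75 not public in Il15°, the numbers were 30, 22, 10 and 13. The wt libraries held 15977 to 25980 UMIs, against 7625 to 18652 in Il2° and 10751 to 18589 in Il15°, and the part of depth in these counts was not tested.

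Across the 12 libraries the TRAV family whose share moved most like that of TRAV12 was TRAV4, with a Pearson correlation of log2 percent of 0.61 (Spearman 0.58), and 0.40 without the 2 libraries with the most extreme TRAV12 share. TRAV14 followed with 0.07 (Spearman 0.04) and TRAV6 with -0.26 (Spearman -0.08), among 10 families with at least 1% of UMIs. These values describe 12 points that share library and depth, and the shares of the families in a library sum to a whole.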

How the data were processed

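TCRα mRNA of sorted thymic Treg was reverse transcribed with Trac primers, tagged with UMIs by template switching and sequenced on a MiSeq in 12 libraries. According to the study's methods the authors filtered reads and built UMI consensus sequences with at least 2 reads per UMI in pRESTO, assigned V, J and CDR3 with MiXCR and converted the output with VDJtools (versions not given in the sources used here). The deposited tables hold 1 line per clonotype with its count, which is the number of UMIs, and its fraction of the library, which was not needed. Depth was 7625 to 25980 UMIs per library, so that 1 UMI was at most 0.0131% of a library.

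From these counts the lines named TRAV12, TRAV12D or TRAV12N were taken, in-frame UMIs were summed by V, CDR3 amino acids and J, and shares were set against all UMIs of a library, or against the family's for TRAJ use. Added bases were those between the deposited V end and J start, leaving out 24 lines without such positions. Segments, clonotypes and TRAJ segments that reached 5 UMIs in 4 or more of the 8 libraries were compared between genotypes with edgeR 4.0.16 (TMM scaling, quasi-likelihood test, Benjamini-Hochberg adjustment over all features tested, threshold 0.05). Single values were compared with exact two-sided Mann-Whitney tests over mice, adjusted over the 3 comparisons, and the family with the other TRAV segments by exact two-sided sign-flip tests over the 12 libraries. TRAJ segments with at least 1% of UMIs on either side entered the latter. Alternatives used DESeq2 1.42.0, limma 3.58.1 on log2(percent + 0.01), other scalings and filters, merged copies, each clonotype counted once, and left-out libraries. Python 3.11.15, scipy 1.17.1 and R 4.3.3 were used, and the scripts were tested on simulated data. V genes and their ends came from GENCODE M21, and all 10 TRAV12 genes it lists were found by symbol.

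The text names all TRAV12 segments found, the TRAJ segments with at least 5% of the family in a genotype or past a test, the 10 clonotypes with the highest mean share, and the 3 with the smallest unadjusted p in a comparison that called none. The members, lists and this rule were chosen with earlier results of these data known. Replicate numbers belong to different mice and pair nothing.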

Additional observations from a re-analysis of the deposited data

Results flagged for a closer look

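In 8 of 87 groups of 4 libraries the highest or lowest library stood apart from the others by Dixon's ratio at its 95% critical value, and chance alone marks about 1 group in 20. For the segments, TRAV12-2 was lowest in wt replicate 1 (0.0847% of UMIs), TRAV12-1 was lowest in wt replicate 2 (0.0585%) and TRAV12D-3 was highest in Il2° replicate 2 (0.0536%), where the name is one of identical copies. For the clonotypes, TRAV12N-3 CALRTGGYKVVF TRAJ12 was lowest in Il15° replicate 3 (0.521%), TRAV12N-3 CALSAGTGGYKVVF TRAJ12 was highest in wt replicate 4 (0.340%), TRAV12N-3 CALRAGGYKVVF TRAJ12 was highest in Il2° replicate 1 (0.181%), TRAV12N-3 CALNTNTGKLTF TRAJ27 was lowest in wt replicate 3 (0.0939%) and TRAV12-3 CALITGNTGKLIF TRAJ37 was highest in wt replicate 3 (0.119%).

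A further 1189 TRAV12 UMIs were marked with a stop codon or frame shift in CDR3 and entered no comparison. They made up 3.78% to 7.40% of the TRAV12 UMIs of a library, against 3.41% to 5.32% for the other TRAV segments. Most came from 3 J segments that were almost never in frame in these tables. TRAJ44 was marked out of frame in 496 of 498 TRAV12 UMIs, TRAJ7 in 487 of 491 and TRAJ47 in 56 of 56. Among the other TRAV segments the same J segments were marked so in 99.9%, 99.3% and 99.8% of UMIs. Whether the chains with these 3 J segments were truly out of frame was not tested.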

How the results depend on the processing

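Over the values that answer a comparison, 417 of 477 alternatives for 41 results kept direction and side of the threshold, or for a count stayed within 1.5 times. Another 5 were weaker, 1 stronger, 2 reversed and 52 moved. Moved means a count changed by over 1.5 times, or a sign turned with neither value past the threshold. For public clonotypes counted once it means a turned sign or a change above 1 SD. In genotype comparisons of single values, the exact Mann-Whitney test with a library left out cannot go below p = 0.0571. The sign-flip test of the replicate block cannot go below 0.125. That these alternatives stayed above the threshold was thus fixed in advance. For single segments, TRAJ segments, residues and clonotypes 943 of 1025 alternatives for 110 results kept direction and side of the threshold. Unless said otherwise the cause was not tested. At 7625 to 25980 UMIs per library a clonotype of a few UMIs can be missed by chance, which limits public and single-clonotype results. The V name of a CDR3 sequence could differ between libraries, among copies of 1 number, among numbers, or with a name outside the family. This limits values for single copies, for merged copies and for the family share.

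With each clonotype counted once, the family share in Il15° was 1.73 points above wt (reversed, adjusted p = 0.0429, exact Mann-Whitney) and 4.77 points above Il2° (adjusted p = 0.0429, exact Mann-Whitney), added bases in Il15° against wt differed by -0.00341, hydropathy by -0.0200, TRAJ23 in the family was 0.273 points above the other TRAV segments, and the central residues I, P and R were at 0.0913, 0.180 and -0.102 points. Of these residues, P passed the threshold in both directions, with -0.541 points by UMIs (adjusted p = 0.000977, exact sign-flip) and 0.180 here (adjusted p = 0.00244, exact sign-flip). The family's part of IL-2-dependent minus independent public clonotypes was then 8.52 points, and that for IL-15 was -2.22, or 1.74 and 1.73 points when at least 2 UMIs in each library were also required, a combination chosen after seeing the data. Clonotypes with at least 2 UMIs gave a CDR3 length difference of -0.0132 residues in Il2° against wt, and 7.90 points for IL-15-dependent minus independent clonotypes. Without downsampling to equal depth, Il15° had 80 clonotypes more than Il2°, and the exponential of the Shannon entropy in Il2° against wt differed by -43.1, which is by construction a comparison at unequal depth.

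The number of TRAV12 segments called was 0 in each comparison. In Il2° against wt it was 1 with DESeq2 and 1 in the fit over 12 libraries (TRAV12D-2 in both), and 2 with copies merged, where the copies numbered 2, mostly TRAV12D-2 by construction, were at -0.65 while TRAV12-2 alone was at 0.59. In Il15° against wt it was 1 with each clonotype counted once (TRAV12N-3, 0.27), and in Il15° against Il2° it was 1 with copies merged and 1 with each clonotype counted once (TRAV12N-3, 0.86). For clonotypes in Il15° against wt DESeq2 called 1. For TRAJ use in Il15° against wt DESeq2 and limma called 1 (TRAJ32) and the replicate block 1 (TRAJ16). In Il15° against Il2° the 1 call became 2 without TMM scaling (TRAJ37 added), 2 without the filter (TRAJ16 added), and 0 with relative log expression scaling, DESeq2, limma or the replicate block (adjusted p for TRAJ12 = 0.107, edgeR).

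The replicate block treats equal numbers as pairs although they belong to different mice. The 5.83 points of the IL-2-dependent public clonotypes were tested otherwise, by pairing the dependent and independent shares of the same wt library. The exact sign-flip test within libraries gave p = 0.125 for them, the smallest it can give. Deviations of samples with the same number correlated by -0.20 to 0.18 over 78 segments, so the numbers were not treated as pairs.

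Leaving out each library in turn gave for Il2° against wt a TRAJ number difference of -0.860 to 0.0212, a length difference of -0.00388 to 0.0439, added bases of -0.0455 to 0.0250, clonotypes of -13.2 to 7.80, entropy of -4.67 to 14.6, and 0 to 3 segments called (3 without Il2° replicate 1). It gave for Il15° against wt a family share of -0.670 to 0.128 points, hydropathy of -0.0131 to 0.0201 and 0 to 1 TRAJ called. For Il15° against Il2° it gave a length difference of -0.0269 to 0.0208, 0 to 1 segments and 0 to 2 TRAJ called. The difference between dependent and independent public clonotypes was 4.99 to 6.90 points for IL-2, where 3 libraries cannot reach the threshold, and -0.839 to 0.0536 for IL-15.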
